A study of Mus musculus with 6 samples.

Results

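The genes described here maintain DNA by recombination, crosslink repair, mismatch repair and base excision repair, together with the checkpoint kinases that respond to damaged or stalled DNA. There were 38 genes, taken from textbook pathways by name and not by their values, while 21368 genes in all had a named probe on the array. RNA came from tongue tissue of 6 C57Bl6 mice, each carrying a doxycycline-inducible Dek transgene (iDek), and was hybridised to single-colour Agilent mouse arrays. Of these mice, 3 were given doxycycline (DOX), the antibiotic that switches the transgene on, for 2 weeks, and 3 were left untreated (no DOX). The genotype label calls the transgene both ubiquitous and squamous cell-specific, and names no promoter. All 6 mice shared the transgene and background. Mice without the transgene were not analysed here with DOX, so an effect of DOX itself and one of induced Dek cannot be told apart.

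Of the 38 genes, 37 had at least 1 probe whose accession belonged to them, 50 probes in all. For Rad51c no probe matched. Probes were tested where the scanner software called them well above background on all 3 arrays of DOX mice or all 3 of no DOX mice, which kept 33 of the 38 genes. The brightest tested probe stood for each gene. Brca1, Palb2, Fancd2 and Chek1 had probes but none that met this condition, so nothing can be said of their change. Of the 33 tested genes, 32 were well above background on all 6 arrays, and Brip1 on 3 DOX and 2 no DOX arrays. Values below are normalised log2 signals, where 0 is the 75th percentile of the array, and log2 changes are given ± standard error. A log2 change is the mean of the 3 DOX arrays minus that of the 3 no DOX arrays.

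Between 56.0% and 57.5% of probes were well above background on the DOX arrays, against 56.8% to 58.3% on the no DOX arrays, and no spot was saturated. Pairs of arrays correlated between 0.980 and 0.990 over tested probes. The number of arrays limits the precision. Keratinocyte and skeletal muscle markers, found in tongue, were well above background on all 6 arrays. These were 7 of 7 basal keratinocyte genes, 7 of 7 suprabasal keratinocyte genes and 8 of 8 skeletal muscle genes. Macrophage (7 of 7) and endothelial genes (6 of 6) were too, so this detection does not single out tongue. Dek was at 2.41, 2.41 and 2.27 in DOX mice, against 2.30, 2.10 and 2.20 in no DOX mice, and its change of 0.17 ± 0.11 missed the threshold given below (adjusted p = 0.456 by limma). Whether the Dek probe also reads the transgene is unknown here, so this value is no check of the labels. In whole tissue, a change in the number of cells of a type and a change of RNA per cell cannot be told apart.

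Homologous recombination rebuilds a broken chromosome from its sister copy. The ends are first trimmed to single strands, a recombinase filament is loaded on them by the BRCA proteins and their partners, and remodelling enzymes help the filament find and leave its template. The Fanconi proteins recognise crosslinked DNA at stalled forks and hand it to nucleases and to recombination, while mismatch repair corrects copying errors and base excision repair removes single damaged bases. Many of these genes are most active in S phase, when a sister copy is present, and the tongue epithelium renews itself from dividing basal cells.

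Exo1, Fignl1, Rad51ap1, Rad54l and Bard1 rose in DOX mice, by 2.25-fold to 5.58-fold. With limma and Benjamini-Hochberg adjustment over all 30933 tested probes, at a threshold of 0.05, 5 of the 33 tested genes rose, against 0.278% of the 26256 genes and unnamed probes tested across the array. All 5 are genes of recombination or end resection, and the other 8 tested genes of the resection, BRCA and recombinase partner groups did not pass. None of the 33 fell, against 0.126% across the array, and 28 did not pass. At an unadjusted p under 0.05, 17 of the 33 were higher and 2 were lower in DOX mice, against 9.05% and 9.58% of everything tested. The median log2 change of the 33 was 0.41 (interquartile range -0.02 to 0.82), beside a median of -0.01 over everything tested. In 17 of the 33 all 3 DOX values lay above all 3 no DOX values, which was so for 12.7% of everything tested, and in 3 all lay below, against 12.6%. The mean was higher in DOX mice for 23 of the 33 and for 49% of everything tested. Brip1, tested through its DOX arrays alone, is in each of these counts of higher genes, and its direction may follow from that filter. At a threshold of 0.1 on the adjusted p, 10 genes were higher and 0 lower, against 1.59% and 1.25%. These shares include unnamed probes. Among the 15210 tested genes with a symbol they were somewhat larger: 0.368% rose and 10.7% were higher at an unadjusted p under 0.05. In 15.3% of them all 3 DOX values lay above all 3 no DOX values, and 51.4% had a higher mean in DOX mice.

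**Figure D1:**
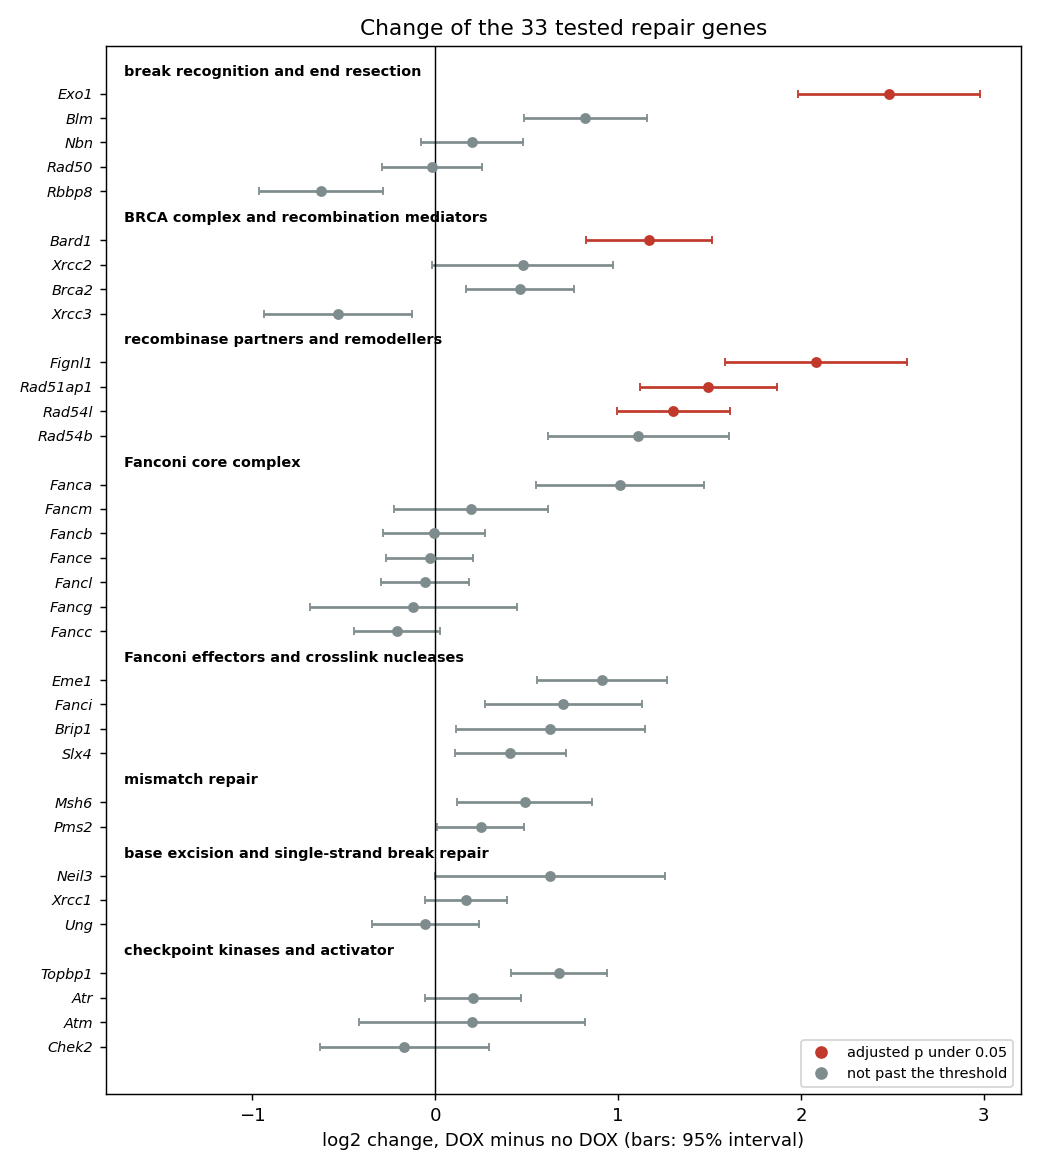
Log2 change of the 33 tested repair genes (DOX minus no DOX, 3 arrays each) with 95% intervals from limma, grouped by role. The 5 genes past the threshold, at 1.17 to 2.48, belong to the resection, BRCA and recombinase partner groups, while 6 of the 7 Fanconi core genes lie within 0.21 of 0.

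Exo1, the exonuclease that lengthens resected DNA ends and also excises the strand in mismatch repair, had the largest change of the 33. It was at -0.03, -0.58 and -0.62 in DOX mice, against -2.70, -3.18 and -2.81 in no DOX mice. The groups were 2.08 apart at their nearest values, with DOX replicate 1 the highest and no DOX replicate 2 the lowest array. Exo1 rose 5.58-fold (95% interval 3.96 to 7.87, log2 2.48 ± 0.21, adjusted p = 0.0151).

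Of the other genes of break recognition and resection, 4 did not pass. Blm encodes the helicase that unwinds DNA during resection and dissolves crossed strands. Its values were -0.98, -0.75 and -1.07 in DOX mice, against -1.68, -1.96 and -1.64 in no DOX mice, with no overlap (log2 change 0.82 ± 0.14, adjusted p = 0.0774). Nbn and Rad50, subunits of the complex that first binds a broken end, were at 0.20 ± 0.12 and -0.02 ± 0.11, with overlapping groups. Rbbp8 encodes CtIP, which starts resection together with that complex. It ran the other way, at 1.00, 1.16 and 1.31 in DOX mice, against 1.82, 1.57 and 1.95 in no DOX mice (log2 change -0.62 ± 0.14, adjusted p = 0.107).

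The 4 genes for partners and remodellers of the recombinase filament were all higher in DOX mice, with a median log2 change of 1.40, and 3 of them rose. Fignl1, an ATPase of this pathway, had 2 tested probes. The brighter was at 0.83, 0.35 and 0.49 in DOX mice, against -1.53, -1.86 and -1.19 in no DOX mice, a rise of 4.23-fold (95% interval 3.00 to 5.97, adjusted p = 0.0231). The other probe gave nearly the same change (2.01 ± 0.19, against 2.08 ± 0.21 for the brighter) and passed as well (adjusted p = 0.0213).

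Rad51ap1, whose product stimulates strand pairing by the recombinase, varied little within the DOX group. It was at 0.30, 0.21 and 0.23 in DOX mice, against -1.17, -1.56 and -1.02 in no DOX mice, and rose 2.82-fold (log2 1.49 ± 0.16, adjusted p = 0.0241). Rad54l, the mouse RAD54 translocase that remodels the filament and its template, was at -1.75, -1.92 and -1.88 in DOX mice, against -2.99, -3.35 and -3.12 in no DOX mice. It rose 2.47-fold (log2 1.30 ± 0.13, adjusted p = 0.0231). Its paralogue Rad54b was at -2.01, -2.46 and -2.04 in DOX mice, against -3.09, -3.66 and -3.10 in no DOX mice, and did not pass (1.11 ± 0.21, adjusted p = 0.0842). None of the 4 genes had overlapping groups.

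**Figure D2:**
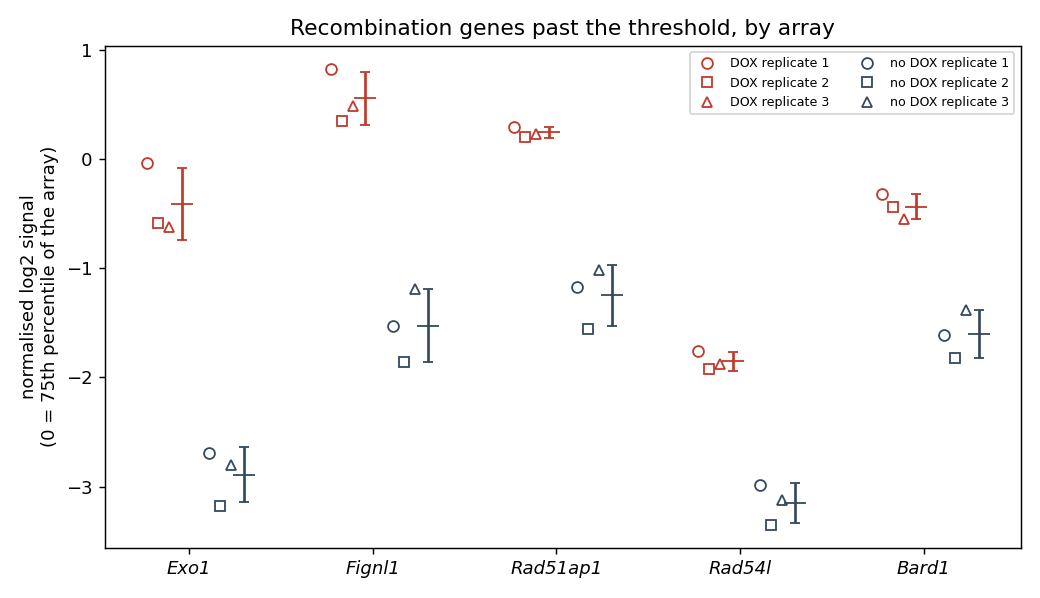
Normalised log2 signal of the 5 genes that rose, by array, with the 3 DOX arrays left of the 3 no DOX arrays, symbols for replicates, and bars for the mean and SD of each group. No DOX replicate 2 (square) is the lowest array for all 5 genes and DOX replicate 1 (circle) the highest.

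Among the BRCA proteins and mediators, which load the recombinase, 4 of 7 genes were tested. Bard1, the obligate partner of the BRCA1 ubiquitin ligase, rose 2.25-fold by its brightest probe (log2 1.17 ± 0.14, adjusted p = 0.0406). That probe was at -0.32, -0.43 and -0.55 in DOX mice, against -1.61, -1.82 and -1.38 in no DOX mice. A second Bard1 probe was at -2.14, -2.11 and -2.15 in DOX mice, against -2.48, -2.44 and -2.46 in no DOX mice. Its change was smaller, at 0.33 ± 0.09, and did not pass (adjusted p = 0.147). With the mean of both probes Bard1 was at 0.75 and no longer passed (adjusted p = 0.0541). A dimmer Bard1 probe and the single Brca1 probe were well above background on 0 of the 6 arrays, so both partners cannot be compared.

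Brca2, which delivers the recombinase to single strands, was at -0.56, -0.68 and -0.48 in DOX mice, against -0.90, -1.21 and -1.0 in no DOX mice (0.46 ± 0.12, adjusted p = 0.137). Its binding partner gene Palb2 was measured above background by its brighter probe in 2 DOX mice and 1 no DOX mouse, and was not tested. The recombinase paralogue genes differed in sign: Xrcc2 had a log2 change of 0.48 ± 0.21 with overlapping groups, and Xrcc3 one of -0.53 ± 0.17. For Xrcc3 the DOX values were -1.03, -1.10 and -0.55, against -0.32, -0.49 and -0.28 in no DOX mice, without overlap but only 0.07 apart. Neither passed (adjusted p = 0.280 and 0.181).

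The Fanconi core complex is the ubiquitin ligase that marks the FANCD2 and FANCI pair at crosslinks. All 7 of its listed genes were tested, 0 passed, and 5 had overlapping groups. Fanca was the exception in size, at -0.10, -0.27 and -0.19 in DOX mice, against -1.01, -1.62 and -0.97 in no DOX mice. Its change of 1.01 ± 0.19 did not pass (adjusted p = 0.0861). The others lay between -0.21 and 0.20, with narrow intervals for some. For Fance the 95% interval ran from -0.27 to 0.21, for Fancl, the ligase subunit, from -0.30 to 0.19, and for Fancb from -0.28 to 0.27. For these 3 genes a rise as large as that of Bard1 or Rad54l lay outside the interval. Fancg and Fancm, the translocase that anchors the complex, had wider intervals (-0.68 to 0.45 and -0.23 to 0.62). Fancc was at -1.35, -1.37 and -1.38 in DOX mice, against -1.06, -1.21 and -1.21 in no DOX mice, a change of -0.21 ± 0.10 that did not pass (adjusted p = 0.314). A second Fancc probe was at -0.76 ± 0.28 and was well above background on 1 DOX array and 3 no DOX arrays.

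Downstream of the core complex the values were higher again. Fanci was at -1.43, -1.55 and -1.62 in DOX mice, against -2.30, -2.53 and -1.88 in no DOX mice (0.70 ± 0.18, adjusted p = 0.130). Fancd2, its partner, was well above background in 0 of the 6 mice. Eme1, a subunit of a structure-specific nuclease, was at -1.77, -2.12 and -2.21 in DOX mice, against -2.91, -3.08 and -2.84 in no DOX mice (0.91 ± 0.15, adjusted p = 0.0704). The nuclease scaffold gene Slx4 had a change of 0.41 ± 0.13 and the helicase gene Brip1 one of 0.63 ± 0.22 (adjusted p = 0.173 and 0.203). In all 4 tested genes of this group the DOX values lay above the no DOX values, and 0 passed. Brip1 entered the test through its DOX arrays alone, so its direction may follow from that filter. Its groups were only 0.06 apart.

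Mismatch repair was represented by Msh6, which helps recognise mismatches, and by Pms2, which nicks the new strand. Msh6 was at 2.50, 2.19 and 2.49 in DOX mice, against 1.68, 1.92 and 2.11 in no DOX mice, a gap of 0.08 between the groups (0.49 ± 0.15, adjusted p = 0.179). The brighter Pms2 probe changed by 0.25 ± 0.10 and the dimmer by 0.36 ± 0.13, and neither passed. Of the 38 listed genes, Exo1, described above, was the one acting in this pathway that rose.

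Of the 3 base excision genes 0 passed. Neil3, a glycosylase that also opens crosslinks, was at -2.55, -1.92 and -2.49 in DOX mice, against -3.08, -3.28 and -2.47 in no DOX mice, with overlap through no DOX replicate 3 (0.63 ± 0.26, adjusted p = 0.265). The uracil glycosylase gene Ung was at -0.05 ± 0.12, with a 95% interval from -0.35 to 0.24. The single-strand break scaffold gene Xrcc1 was at 0.17 ± 0.09, and its 3 DOX values (2.95, 2.90 and 2.90) lay above the no DOX values (2.69, 2.76 and 2.79). Neither of these passed (adjusted p = 0.861 and 0.380).

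Among the checkpoint genes, Topbp1, which activates the kinase ATR, was at 0.66, 0.49 and 0.63 in DOX mice, against -0.07, -0.20 and 0.01 in no DOX mice. Its change of 0.68 ± 0.11 did not pass (adjusted p = 0.0694). The kinase genes had smaller values: Atr was at 0.21 ± 0.11, Atm at 0.20 ± 0.26 and Chek2 at -0.17 ± 0.19, all with overlapping groups. A second Atm probe was at -0.07 ± 0.16. Chek1, the kinase downstream of ATR, exceeded background on 0 DOX and 2 no DOX arrays. Across the set, 8 genes had several tested probes, and in 5 of them the probes shared a sign. The 3 others, Rad50, Fancl and Atm, had changes of 0.20 or less in size by either probe.

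**Figure D3:**
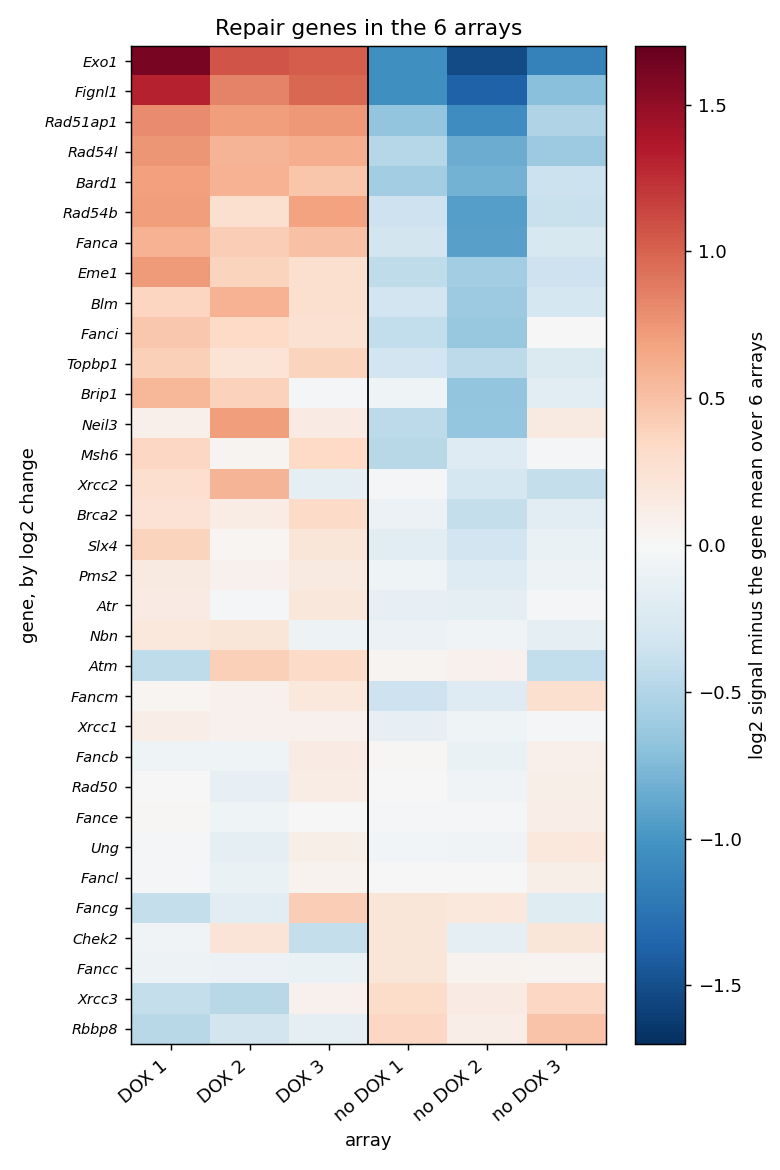
Signal of each tested gene in each array minus its mean over the 6 arrays (log2, colour scale), with genes ordered by log2 change and the 3 DOX arrays left of the 3 no DOX arrays. The 5 genes that rose, at the top, are darkest in DOX replicate 1 and in no DOX replicate 2, while genes near 0, such as Fance and Ung, are pale in all 6 arrays.

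The arrays of a group were not equal in these genes. No DOX replicate 2 was the lowest of the no DOX arrays for 24 of the 33 tested genes, against 28.2% of everything tested, and for all 5 that rose. DOX replicate 1 was the highest DOX array for 16 of the 33 and for all 5 that rose. The share for DOX replicate 1 over everything tested was not counted, so this is not read as particular to these genes. Averaged over the 5 genes that rose, and set against each gene's mean over the 6 arrays, the values were 1.04, 0.76 and 0.77 in DOX mice, against -0.77, -1.12 and -0.67 in no DOX mice. Over the 28 genes that did not pass they were 0.14, 0.13 and 0.15 in DOX mice, against -0.11, -0.26 and -0.05 in no DOX mice. A marker list of lingual and salivary glands also set no DOX replicate 2 apart, and its genes differed between the groups in both directions. Of its 8 genes, 7 were well above background on all 6 arrays. Car6 was so on 3 DOX and 2 no DOX arrays, so it was tested through its DOX arrays alone. In 5 of the 8 all DOX values lay above all no DOX values, against 12.7% of everything tested. These were Bpifa2 (log2 change 6.51 ± 1.64), Car6 (4.16 ± 0.96), Amy1 (2.96 ± 1.13), Lpo (2.55 ± 0.46) and Bhlha15 (1.82 ± 0.28). The other 3 had a lower mean in DOX mice. In Dcpp1 all DOX values lay below (-0.76 ± 0.29), and in Klk1 (-4.22 ± 1.92) and Aqp5 (-0.98 ± 0.43) the groups overlapped. None of the 8 passed the test. The mean level of its 8 genes was 3.64, 4.23 and 3.66 in DOX mice, against 3.31, 0.71 and 3.00 in no DOX mice. Other marker lists also had no DOX replicate 2 lowest of the 6 arrays, set against each gene's mean over them. These were neutrophils (-1.12), B and plasma cells (-0.70), dividing cells (-0.51) and macrophages (-0.25). The lists of keratinocytes, skeletal muscle, T and NK cells, fibroblasts, endothelial and erythroid cells did not. The part that gland content, or the content of other cell types, plays in the repair gene values was not tested. Without no DOX replicate 2 the changes were 2.34 for Exo1, 1.92 for Fignl1, 1.34 for Rad51ap1, 1.20 for Rad54l and 1.06 for Bard1.

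The 5 changes kept their direction in each of the 18 alternative analyses, but their calls were not stable. Several of the 18 could not change a direction. The threshold of 0.1 and the variance trend reuse the same changes, and the deposited values differ only by a factor that scaling removes. Where groups do not overlap, leaving out 1 array cannot turn the sign. Exo1 passed in 2 of the 6 fits that each left out 1 array, those without DOX replicate 2 (adjusted p = 0.0448) and without DOX replicate 3 (0.0461). In the other 4 it was 0.0514 without DOX replicate 1, and 0.0560, 0.0673 and 0.0681 without no DOX replicates 1, 2 and 3. Fignl1, Rad51ap1, Rad54l and Bard1 passed in 0 of the 6. Without DOX replicates 1, 2 and 3 in turn, 0, 1 and 1 of the 33 genes rose, and without no DOX replicates 1, 2 and 3 it was 0 each time. With no filter on dim probes 0 of the 5 passed, at adjusted p from 0.0666 to 0.121. DOX replicates 2 and 3 lay in row 2 of the slide and the other 4 arrays in row 1. With slide row as a block, in which DOX replicate 1 alone carries the comparison, Exo1 passed at 2.86 (adjusted p = 0.0483) and the other 4 did not, at 1.29 to 2.36. With normexp background correction the 5 all passed, but the log2 changes of Exo1 (1.40), Rad54l (0.53) and Bard1 (0.76) were smaller by more than 1.5 times.

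**Figure D4:**
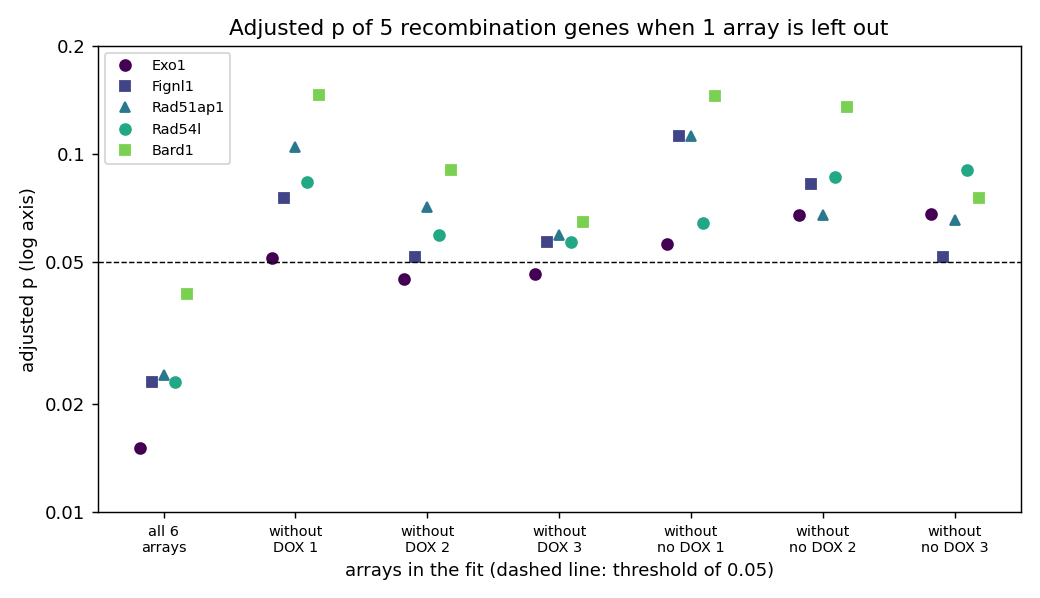
Adjusted p (log axis) of the 5 genes that rose with all 6 arrays and with each array left out in turn, with the threshold of 0.05 dashed. All 5 are below the line with 6 arrays, and with 5 arrays Exo1 alone is below it, without DOX replicate 2 and without DOX replicate 3.

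Promoter sequences are shown for Fignl1, Rad51ap1, Rad54l and Bard1, which rose, and for Fancb, which did not, with the letters of sites for E2F factors, transcription factors of S phase entry that are known regulators of many repair genes. Each is the RefSeq window of GRCm38.p6 from 250 bases before to 50 after the gene's start, 5′ to 3′ on the gene's strand. Capitals mark the letters TTCCCGC or TTGGCGC on either strand, both found within E2F sites. RefSeq windows were at hand for 31 of the 38 genes (33 windows), and not for Exo1.
Fignl1, chr11:11808913-11809212, minus strand: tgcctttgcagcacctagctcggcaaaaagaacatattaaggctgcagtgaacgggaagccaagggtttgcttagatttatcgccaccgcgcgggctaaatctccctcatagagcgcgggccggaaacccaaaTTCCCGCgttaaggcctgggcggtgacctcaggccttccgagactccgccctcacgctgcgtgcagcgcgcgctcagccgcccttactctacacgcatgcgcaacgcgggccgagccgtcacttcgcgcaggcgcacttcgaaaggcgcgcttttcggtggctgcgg
Rad51ap1, chr6:126939538-126939837, minus strand: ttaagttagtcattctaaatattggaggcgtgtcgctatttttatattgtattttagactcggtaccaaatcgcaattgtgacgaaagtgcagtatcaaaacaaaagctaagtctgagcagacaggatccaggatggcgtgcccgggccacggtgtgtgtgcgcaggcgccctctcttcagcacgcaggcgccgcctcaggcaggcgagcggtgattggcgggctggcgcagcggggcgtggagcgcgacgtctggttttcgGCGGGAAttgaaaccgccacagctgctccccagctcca
Bard1, chr1:71102923-71103222, minus strand: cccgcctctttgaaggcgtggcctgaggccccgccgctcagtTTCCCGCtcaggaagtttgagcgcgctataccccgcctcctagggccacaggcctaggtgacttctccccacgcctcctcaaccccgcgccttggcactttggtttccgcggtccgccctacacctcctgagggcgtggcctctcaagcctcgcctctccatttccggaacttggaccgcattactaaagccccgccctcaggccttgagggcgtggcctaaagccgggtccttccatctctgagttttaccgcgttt
Rad54l, chr4:116123640-116123939, minus strand: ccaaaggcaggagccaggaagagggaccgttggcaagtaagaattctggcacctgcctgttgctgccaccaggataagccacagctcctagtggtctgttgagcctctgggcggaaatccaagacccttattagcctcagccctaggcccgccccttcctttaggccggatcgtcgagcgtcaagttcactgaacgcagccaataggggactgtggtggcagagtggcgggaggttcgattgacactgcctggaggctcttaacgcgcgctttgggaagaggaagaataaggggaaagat
Fancb, chrX:164980342-164980641, plus strand: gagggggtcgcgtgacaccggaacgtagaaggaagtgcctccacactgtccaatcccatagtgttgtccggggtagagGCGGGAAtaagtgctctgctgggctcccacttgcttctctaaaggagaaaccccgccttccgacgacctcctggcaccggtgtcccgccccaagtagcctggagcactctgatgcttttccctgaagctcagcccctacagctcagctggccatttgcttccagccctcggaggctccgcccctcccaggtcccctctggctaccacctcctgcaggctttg

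The E2F letters lay at positions -117 to -111 from the start in Fignl1, -208 to -202 in Bard1 and -172 to -166 in Fancb. In Rad51ap1 they lay at positions 13 to 19, and the Rad54l window held none. At least 1 such match was present in 16 of the 33 windows (48.5%), beside 6.81% of all 32851 mouse promoter windows of the same length. A match was found for 8 of the 15 genes with a window whose DOX values all lay above the no DOX values, and for 5 of the other 12 tested genes with a window. Genes with the letters included Fancg, Fancm, Chek2 and Atm, whose groups overlapped. The CCAAT box, searched as CCAAT on both strands, was in 57.6% of the 33 windows and 37.4% of all windows. The CHR, an element of genes active in mitosis searched as TTTGAA on both strands, was in 6.06% of the 33 and 17.9% of all. The 3 motifs did not overlap each other in these windows. A match describes these letters only and is not a measured binding site.

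**Figure D5:**
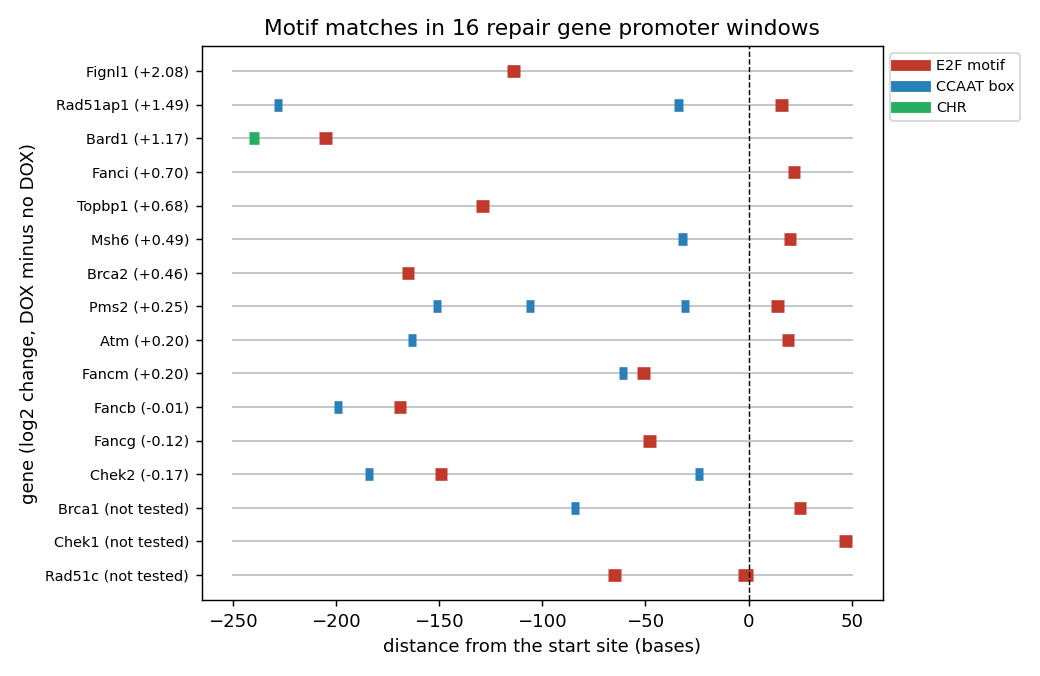
Positions of the E2F letters, CCAAT boxes and CHR in the 16 promoter windows that hold the E2F letters, in bases from the start site, with genes ordered by log2 change in brackets. Matches lie both in genes that rose, such as Fignl1 and Bard1, and in genes near 0, such as Fancb and Fancg.

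Further genes of the same pathways, 94 taken from textbook lists, were also mostly higher in DOX mice, except those of mismatch repair. A smaller share rose, at 2.25% of those tested against 15.2% of the 33 genes above. This list was written with the 38 genes known and leaves them out, so nothing is concluded from the difference in shares. Of 89 tested, 2 rose and 0 fell, against 0.278% and 0.126% across the array. The mean was higher in DOX mice for 64, against 49% of everything tested, and the median log2 change was 0.20. At an unadjusted p under 0.05, 31 were higher and 2 lower, against 9.05% and 9.58% of everything tested. The counts of 64 and 31 include Clspn, tested through its DOX arrays alone, whose direction may follow from that filter. Fen1, the flap endonuclease of base excision repair and of lagging strand synthesis, was at 2.87, 2.48 and 2.58 in DOX mice, against 1.41, 1.23 and 1.52 in no DOX mice, and rose by 1.26 ± 0.14 (adjusted p = 0.0327). Lig1, the ligase that seals the same nicks, was at 0.65 ± 0.10 (adjusted p = 0.0629). Of 30 recombination genes tested in this list 1 rose, and the resection nuclease gene Dna2 (1.46 ± 0.20), Hrob (0.79 ± 0.13), Psmc3ip (0.76 ± 0.14) and the helicase gene Mcm8 (0.57 ± 0.13) did not pass.

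None of the 13 other Fanconi genes passed. Those with the smallest p were Atad5 (1.04 ± 0.18) and Usp1 (0.52 ± 0.09), which unload the sliding clamp and remove ubiquitin from the FANCD2 pair. None of the 20 other checkpoint genes passed, though 17 had a higher mean in DOX mice, against 49% of everything tested. In 14 all DOX values lay above all no DOX values, against 12.7%. Timeless, of the fork protection complex, was at 0.75 ± 0.14 and the kinase gene Wee1 at 0.79 ± 0.15. Clspn, the mediator of ATR signalling, exceeded background on 3 DOX and 0 no DOX arrays, so its difference has only a bound and is not sized here (adjusted p = 0.0842). It entered the test through its DOX arrays alone, and its direction in the counts of 17 and 14 may follow from that filter. The 6 other mismatch repair genes had a median of -0.04, and Pms1 the smallest p of them (0.40 ± 0.10, adjusted p = 0.127).

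Markers of dividing cells moved with the repair genes in part. Of 10 such markers 3 rose, against 0.278% of everything tested. All 3 are genes of S phase: Mcm5 (1.89 ± 0.13), Mcm2 (1.36 ± 0.14) and Pcna (0.86 ± 0.10). The other 7 did not pass, and their groups overlapped: Mki67 was at -0.03 ± 0.22, Top2a at 0.38 ± 0.28, Cdk1 at 0.61 ± 0.24, Ccna2 at 0.16 ± 0.20, Ccnb1 at -0.24 ± 0.24, Birc5 at 0.13 ± 0.25 and Plk1 at 0.01 ± 0.24. The mean level of the 10 markers was 1.59, 1.60 and 1.19 in DOX mice, against 0.94, 0.70 and 1.20 in no DOX mice, so DOX replicate 3 and no DOX replicate 3 were alike. All 10 markers were well above background on all 6 arrays. The part of a change in the number of dividing cells was not tested.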

How the data were processed

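Tongue RNA of 3 DOX and 3 no DOX mice was labelled with Cy3, per the labels' protocols. The authors deposited scanner files of linear signal intensity made with Agilent Feature Extraction (version 11.5.1.1 by the submitters' processing notes); the processed signal is background-subtracted, per the file headers. The deposited value table equals that intensity times 1 factor per array (3.70 to 3.99). The arrays lay on 1 slide. Groups came from the treatment label and replicate numbers from the titles. Nothing in the labels beyond separate mice describes the replicates.

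Outlier spots (146 to 195 per array) were left out, the log2 processed signal was averaged per probe, and the array's 75th percentile was subtracted. Probe accessions were matched to RefSeq symbols (GRCm38.p6), naming 28331 of 55681 probes; older list symbols were updated. The test of DOX against no DOX was that of limma (version 3.58.1, R 4.3.3; lmFit and eBayes, two-sided) on 30933 probes, with Benjamini-Hochberg adjustment and a threshold of 0.05. The fit was tested on simulated data. Every listed gene is described, with full statistics for those past the threshold and for the 8 others with the smallest p. Of the further lists, those past the threshold and up to 4 others per list are named. The genes, lists and motifs were chosen with earlier results of these data known. Some genes of the further lists that met it are left out of this text. Alternatives covered background, scaling, filter, variance model, array weights, blocks, probe rule, threshold and each array left out; normexp used the median signal, since the mean signal is not among the columns used here.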

Additional observations from a re-analysis of the deposited data

How the results depend on the processing

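Of 33 genes, 26 kept their sign in every alternative. The count of 5 that rose became 0 with no filter on dim probes, 9 with array weights, 1 with slide row as a block and 10 at a threshold of 0.1, and lay between 0 and 1 with 1 array left out. The 2 further pathway genes that rose became 5 with normexp, 4 with a variance trend, 10 with array weights, 11 at a threshold of 0.1, 0 with no filter and 0 with slide row, and 0 to 1 with 1 array left out. No gene of either list fell in any of these. The median change of 0.41 was 0.19 with normexp and 0.31 to 0.44 with 1 array left out. The cause of these shifts was not tested, except that fewer arrays or more dim probes enter by construction.

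With the replicate number as a block 0 of the 5 and 0 of the 2 passed. The shared numbers did not pair the arrays: deviations from the group means correlated at -0.11, -0.01 and 0.01 for replicates 1, 2 and 3, and no array correlated best with its own number.

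Changes of sign were confined to 7 genes near 0. With array weights Rad50 was at 0.0115, Fancb at 0.0172, Fance at 0.000485 and Atm at -0.00751. With slide row as a block Fance was at 0.00696 and Atm at -0.33. With the mean of probes Rad50 was at 0.000822 and Fancl at 0.0462. With 1 array left out Rad50 ran from -0.082 to 0.0492, Fancb from -0.0769 to 0.0395, Fance from -0.0535 to 0.0169, Fancg from -0.36 to 0.0533 and Ung from -0.12 to 0.0246.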
